A study of Mus musculus with 6 samples.

Results

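Transcripts of 10 genes of the Bcl2 family were followed in total RNA from mouse samples labelled JMML and WT. They were chosen by name, with earlier results of these data known, as genes that hold back or start cell death through mitochondria. The set held 4 survival members (Bcl2, Bcl2l1, Mcl1 and Bcl2a1b), 2 effectors (Bax and Bak1) and 4 BH3-only members (Bcl2l11, Bid, Pmaip1 and Bbc3). Each symbol had 1 Ensembl identifier through the GENCODE vM21 annotation, so the members were 10 of the 46078 genes in each count table. All 10 also passed the filter on low counts, which left 18097 genes to be tested. JMML stands for juvenile myelomonocytic leukemia, a childhood blood cancer with too many monocytic and granulocytic cells, and the 3 JMML libraries are the cases of the study. The 3 WT (wild-type) libraries are its controls. The series title speaks of lasting fetal blood formation in an age-specific mouse model, but the labels state no allele, agent, strain, tissue, age or time for either group, nor whether replicates are separate animals. The p-values therefore measure only the spread between these 6 samples.

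The family decides whether the outer mitochondrial membrane of a cell stays closed. Bax and Bak1 proteins can join into pores that let cytochrome c out and so switch on caspases. Survival proteins hold Bax, Bak1 and the BH3-only proteins in a surface groove. BH3-only proteins are sensors of stress: they fill the groove of survival proteins through a short helix, the BH3 domain, and some also activate Bax and Bak1 directly. In blood, Mcl1 is needed by stem cells and neutrophils, Bcl2 by mature lymphocytes, Bcl2l1 by late red cell precursors and platelets, and the loss of Bcl2l11 makes myeloid and lymphoid cells accumulate. Much of the control acts on the proteins, through cleavage, phosphorylation and degradation, which RNA counts do not show.

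Bases that match a BH3 helix are shown because BH3-only proteins fill the groove of survival proteins through this helix. Survival members and effectors can carry such a stretch too. The search was for a leucine codon, any 3 codons, a glycine or alanine codon and an aspartate codon in the principal coding sequence of each member (GENCODE vM21, GRCm38). Of the 10 members, 9 had a match and Bcl2a1b had none. The 8 stretches of 24 bases printed here, 5′ to 3′ on the coding strand, carry the leucine codon and the glycine or alanine and aspartate codons in capitals; no stretch is printed for Pmaip1.
Bcl2: accCTCcgccgggctGGGGATgac (chr1:106712581-106712604, minus strand)
Bcl2l1: gcgCTGagagaggcaGGCGATgag (chr2:152829703-152829726, minus strand)
Mcl1: accCTGcggcgcgtgGGCGACggc (chr3:95659433-95659456, plus strand)
Bax: tgtCTCcggcgaattGGAGATgaa (chr7:45466003-45466026, minus strand)
Bak1: cagCTTgctctcatcGGAGATgat (chr17:27022537-27022560, minus strand)
Bcl2l11: gagCTGcggcggatcGGAGACgag (chr2:128147147-128147170, plus strand)
Bid: catCTCgcccaaataGGCGATgag (chr6:120897295-120897318, minus strand)
Bbc3: cagCTGcggcggatgGCGGACgac (chr7:16313770-16313793, plus strand)
The search itself required the leucine and the aspartate codon. At the position where glycine or alanine was allowed, Bbc3 carries alanine and the other 7 printed stretches carry glycine.

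The libraries held 91976512 to 108395459 counts in JMML and 47096464 to 61656272 in WT, so depth was greater in JMML. A final letter F stands in the names of JMML replicates 1 and 2, and a final M in the 4 remaining names. Xist had at least 49961 counts in the 2 libraries with F and at most 36 in those with M, and 4 Y-linked genes had 0 counts in the former and at least 1777 in the latter, so sex and group are partly confounded. JMML replicate 3 and WT replicate 3 also have names with a common start, which the labels do not explain. Summed over marker lists and scaled to CPM (counts at a common library size), B-cell genes were at 16.7 to 27.2 CPM in JMML and 116 to 446 in WT, T-cell genes at 13.6 to 23.8 and 45.2 to 67.5, platelet genes at 13.2 to 27.5 and 239 to 771, and red cell genes at 313 to 1217 and 1327 to 2013. Monocyte and macrophage genes were at 6411 to 10484 CPM in JMML and 3641 to 4835 in WT. In such bulk samples fewer cells of a type and less RNA per cell cannot be told apart. No marker of these lists was at 0 in either group.

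More members were higher in JMML than lower. By the quasi-likelihood F test of edgeR, with p-values adjusted over all genes by Benjamini-Hochberg, 5 of the 10 members rose (Mcl1, Bax, Bak1, Bid and Pmaip1), 1 fell (Bcl2) and 4 did not pass an adjusted p of 0.05 (Bcl2l1, Bcl2a1b, Bcl2l11 and Bbc3). The same test called 26.2% of all genes, 12.4% higher and 13.8% lower. The 2 groups of libraries did not overlap in 8 of 10 members, against 47.5% of all genes. The median log2 fold change of the members was 0.64, and that of all genes tested was −0.02. As the members were chosen with earlier results of these data known, these comparisons only describe them. Of the members called higher, Pmaip1 and Bak1 had the largest fold changes, and the survival members Mcl1 and Bcl2 moved in opposite directions.

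**Figure D1:**
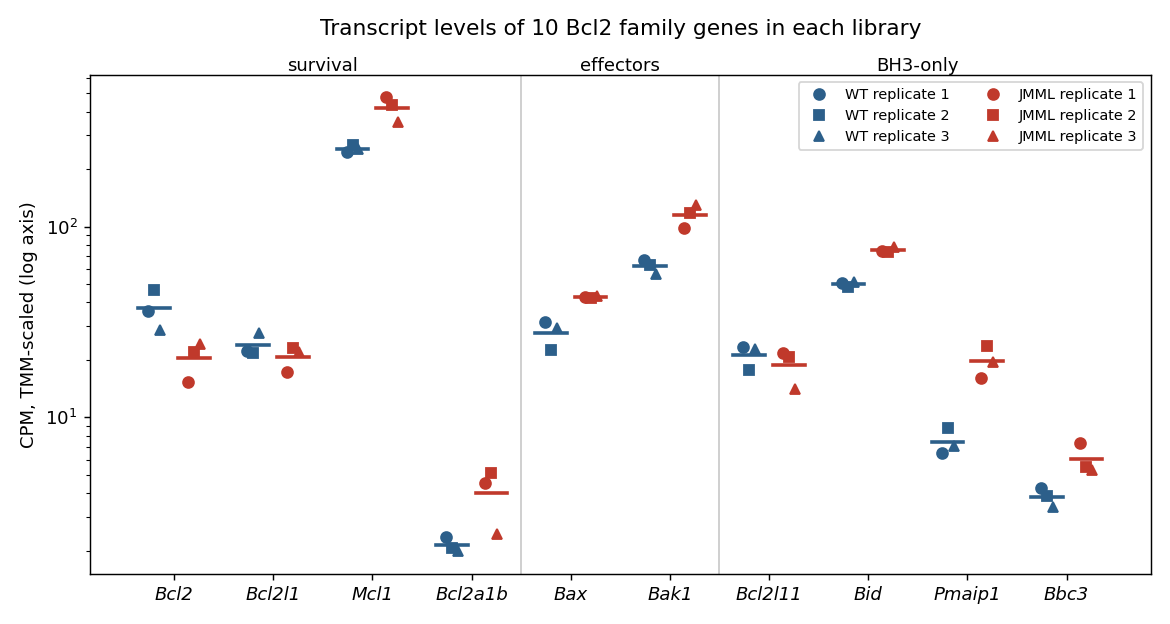
Levels of the 10 members in TMM-scaled CPM on a logarithmic axis; each symbol is a library (WT blue, JMML red, shape by replicate) and horizontal lines are group means. The 3 JMML points of Pmaip1 (15.99 to 23.58 CPM) sit above its 3 WT points (6.48 to 8.83), and the points of Bcl2l1 and Bcl2l11 overlap between groups.

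Bcl2, the founding survival gene of the family, was the member that fell. It lies on chromosome 1, 106538178 to 106714274 (GRCm38, minus strand, ENSMUSG00000057329). Its level was 15.30, 22.14 and 24.19 CPM in JMML replicates 1, 2 and 3, and 36.24, 46.74 and 28.71 CPM in WT replicates 1, 2 and 3. Every JMML library was below every WT library, and the gap between JMML replicate 3 and WT replicate 3 was the narrowest. The mean was 20.5 ± 4.65 CPM (SD, n = 3) in JMML against 37.2 ± 9.06 in WT, a log2 fold change of −0.86 ± 0.24 (SE; adjusted p = 0.0350 in edgeR). The 95% interval ran from −1.41 to −0.31. This call ended in 8 of 16 alternatives, with −0.67 (adjusted p = 0.0753) and −0.90 (0.0764) when JMML replicate 1 or 2 was left out, and −0.82 (0.0842) and −0.66 (0.132) when WT replicate 1 or 2 was. It also ended with the replicate block (−0.86, 0.0658), with the identifier letter as a covariate (−0.62, 0.242), in the libraries with the letter M alone (−0.58, 0.220) and after removal of the trend with exon length (−0.67, 0.0676), and every value stayed below 0. The B-cell and T-cell marker sums were lower in the same 3 libraries, with 9 of 10 and 8 of 9 tested markers called lower and 0 higher; their part in the level of Bcl2, which lymphocytes use, was not tested.

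Mcl1, a survival gene whose protein turns over within a short time, had the highest level of the 10 and rose. It lies on chromosome 3, 95658788 to 95663176 (plus strand, ENSMUSG00000038612). The 3 JMML libraries had 474.46, 431.65 and 353.46 CPM, and the 3 WT libraries 244.76, 266.93 and 253.67. WT replicates were close to each other, JMML replicates were more spread, and the groups did not overlap. Means were 420 ± 61.4 CPM in JMML and 255 ± 11.2 in WT (SD, n = 3), and the log2 fold change was 0.72 ± 0.14 (interval 0.40 to 1.04, adjusted p = 0.0110 in edgeR). JMML replicate 3, the JMML library with the letter M, was the lowest of its group. With the letter as a covariate the fold change was 0.47 (adjusted p = 0.103) and in the libraries with M alone 0.51 (0.0792), and these were the settings that ended the call. Of 8 monocyte and macrophage markers, 7 were called higher in JMML and 0 lower, with sums of 10484, 8162 and 6411 CPM in JMML replicates 1, 2 and 3. Of 9 granulocyte markers, 3 were called higher and 0 lower, and their sums overlapped between groups, at 29079, 19513 and 26467 CPM in JMML and 11453, 11484 and 20000 in WT. The part of either list in the level of Mcl1 was not tested.

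Bcl2l1, which encodes Bcl-xL, did not pass the test. It lies on chromosome 2, 152780668 to 152831728 (minus strand, ENSMUSG00000007659), and its gene count does not separate the long survival isoform from the short death-promoting one. Its level was 17.35, 23.16 and 21.96 CPM in JMML and 22.32, 21.87 and 27.83 in WT. The groups overlapped, with JMML replicate 1 lowest and WT replicate 3 highest. The log2 fold change was −0.21 ± 0.17 (adjusted p = 0.392 in edgeR), with an interval from −0.60 to 0.19. Over 16 alternatives it stayed between −0.38 and −0.04. Red cell and platelet marker sums, cell types in which Bcl2l1 is known to act, were lower in JMML over the same libraries, and their part in this value was not tested.

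Bcl2a1b encodes a copy of A1, a survival protein that inflammatory signals switch on. It lies on chromosome 9, 89199209 to 89207827 (plus strand, ENSMUSG00000089929). Its level was 4.54, 5.11 and 2.45 CPM in JMML and 2.35, 2.07 and 2.00 in WT. JMML replicates 1 and 2 were well above WT, and JMML replicate 3 lay just above the highest WT library. The log2 fold change was 0.91 ± 0.31 (interval 0.19 to 1.64), and the adjusted p of 0.0673 in edgeR missed the threshold. Without JMML replicate 3 the fold change was 1.19 (adjusted p = 0.0192), with the letter as a covariate it was 0.20, and in the libraries with M alone 0.24. The DESeq2 Wald test also called it (0.91, adjusted p = 0.0253).

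The mouse carries several Bcl2a1 copies so alike that reads can be placed on the wrong one. The first 60 coding bases follow, 5′ to 3′, with the 6 positions in capitals at which the 3 copies are not all the same (GRCm38). They were chosen as the coding stretch of that length with the most such positions, so the copies are more alike elsewhere.
Bcl2a1a: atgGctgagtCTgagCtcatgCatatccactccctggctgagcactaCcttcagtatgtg (chr9:88957051-88957110, plus strand)
Bcl2a1b: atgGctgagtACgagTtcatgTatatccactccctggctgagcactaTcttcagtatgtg (chr9:89199360-89199419, plus strand)
Bcl2a1d: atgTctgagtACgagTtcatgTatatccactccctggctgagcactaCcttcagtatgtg (chr9:88731660-88731719, minus strand)
Over the 516 coding bases Bcl2a1b was identical to Bcl2a1a at 97.87% and to Bcl2a1d at 98.84%. Of the 768 windows of 50 bases in the transcripts of Bcl2a1b, 57.55% also occurred in another copy. The count of each copy is therefore uncertain, since the treatment of reads with several matches is not given in the sources used here. Bcl2a1b also overlaps the protein-coding gene Gm29094 on the same strand by 8449 bases. Gm29094 had at most 17 counts in a library, and how reads of the shared bases were assigned is not given. Summed over the 3 copies, the level was 9.85, 12.3 and 6.39 CPM in JMML and 5.02, 5.02 and 4.21 in WT. All 3 JMML libraries were above the WT libraries, again with JMML replicate 3 the nearest. The sum rose, with a log2 fold change of 1.0 ± 0.26 (adjusted p = 0.0298 in edgeR).

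Both effectors rose. Bak1, which sits in the mitochondrial membrane before any death signal, lies on chromosome 17, 27019810 to 27029009 (minus strand, ENSMUSG00000057789). It had 98.20, 117.93 and 129.38 CPM in JMML and 66.71, 62.61 and 56.51 in WT. The lowest JMML library was well above the highest WT library. Means were 115 ± 15.8 and 61.9 ± 5.14 CPM (SD, n = 3), and the log2 fold change was 0.89 ± 0.13 (interval 0.59 to 1.20, adjusted p = 0.00514 in edgeR). The call held in all 16 alternatives, between 0.71 and 1.10.

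Bax, which moves from the cytosol to mitochondria once activated, lies on chromosome 7, 45461697 to 45466898 (minus strand, ENSMUSG00000003873). JMML libraries had 42.60, 42.43 and 43.13 CPM and WT libraries 31.47, 22.61 and 29.31. JMML libraries were nearly alike, WT libraries differed among themselves, and WT replicate 2 was the lowest. Means were 42.7 ± 0.362 and 27.8 ± 4.62 CPM, with a log2 fold change of 0.62 ± 0.15 (interval 0.28 to 0.96, adjusted p = 0.0222 in edgeR). The call ended in 7 of 16 alternatives, at 0.64 (adjusted p = 0.0555) without JMML replicate 2, 0.63 (0.0525) without JMML replicate 3 and 0.49 (0.0593) without WT replicate 2. The other settings that ended it were library totals alone (0.44, 0.0578), the replicate block (0.63, 0.0513), the letter as a covariate (0.63, 0.0958) and the libraries with M alone (0.67, 0.105).

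Among the BH3-only members Pmaip1 had the largest change of all 10. Pmaip1 encodes Noxa, which binds Mcl1 and A1 rather than Bcl2 and speeds the breakdown of Mcl1 protein. The gene (ENSMUSG00000024521) lies on chromosome 18. Its level was 15.99, 23.58 and 19.60 CPM in JMML and 6.48, 8.83 and 7.07 in WT. Every JMML library was above every WT library by a wide margin. Means were 19.7 ± 3.80 and 7.46 ± 1.23 CPM (SD, n = 3), and the log2 fold change was 1.40 ± 0.20 (interval 0.93 to 1.87, adjusted p = 0.00482 in edgeR). All 16 alternatives called it, between 1.22 and 1.55.

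Bid, which caspase-8 cleaves so that death receptor signals reach mitochondria, also rose. It lies on chromosome 6, 120891930 to 120916853 (minus strand, ENSMUSG00000004446). The JMML libraries had 74.08, 73.51 and 78.56 CPM and the WT libraries 50.50, 48.20 and 50.95. Both groups were tight and far apart. The log2 fold change was 0.60 ± 0.09 (interval 0.38 to 0.82, adjusted p = 0.00637 in edgeR), from means of 75.4 ± 2.77 and 49.9 ± 1.48 CPM, and it was called in all 16 alternatives, between 0.41 and 0.70. The gene overlaps Bcl2l13 on the opposite strand by 913 bases. Bcl2l13 had up to 9208 counts in a library and changed the other way (−0.34 ± 0.10, adjusted p = 0.0408, a call that ended in 11 of 16 alternatives). With the strand setting of the counting not given the reads of the shared bases are uncertain.

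Bbc3 encodes Puma, a p53 target that binds all survival proteins, and lies on chromosome 7, 16308393 to 16318205 (plus strand, ENSMUSG00000002083). It had 7.38, 5.52 and 5.31 CPM in JMML and 4.26, 3.85 and 3.39 in WT. The groups did not overlap, and JMML replicate 1 stood above the rest of its group. The log2 fold change of 0.66 ± 0.22 (interval 0.15 to 1.17) had an adjusted p of 0.0615 in edgeR and so did not pass. The DESeq2 Wald test called it at an adjusted p of 0.0206, the only one of 16 alternatives to do so.

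Bcl2l11 encodes Bim, which binds all survival proteins and which FoxO factors induce when growth factors are withdrawn. It lies on chromosome 2, 128126038 to 128162547 (plus strand, ENSMUSG00000027381). Its level was 21.84, 20.70 and 14.09 CPM in JMML and 23.24, 17.73 and 22.84 in WT. The groups overlapped, and JMML replicate 3 was the lowest library. The log2 fold change was −0.17 ± 0.20 (adjusted p = 0.560 in edgeR), with an interval from −0.65 to 0.31. Its sign rested on JMML replicate 3: the value was 0.02 without that library, −0.59 with the letter as a covariate and −0.55 in the libraries with M alone.

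**Figure D2:**
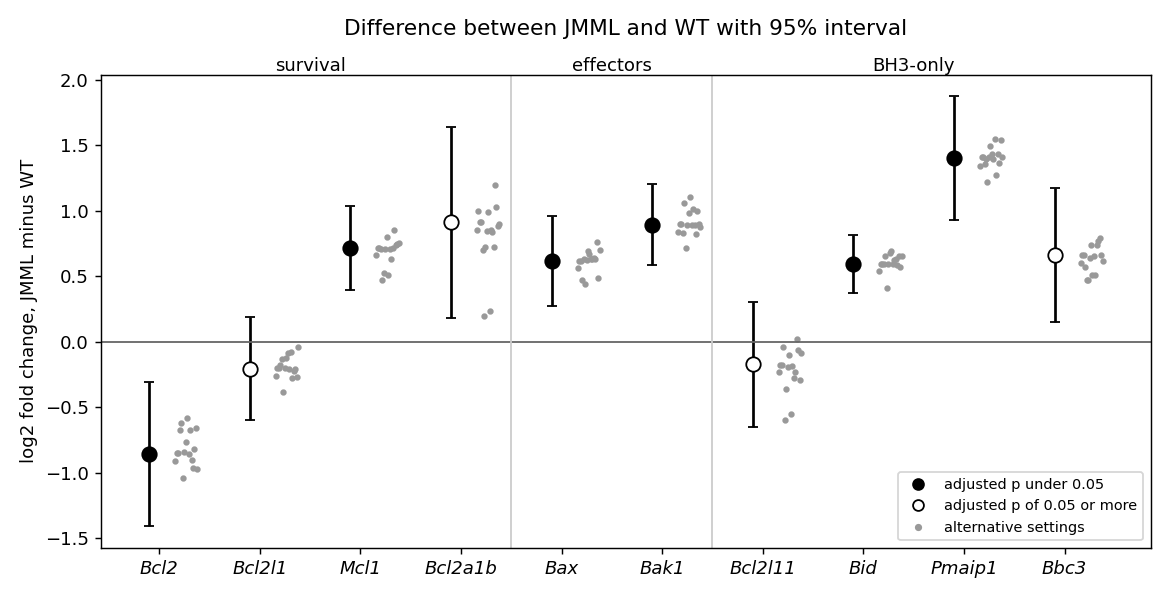
Fitted log2 fold change of each member, JMML minus WT, with 95% intervals as bars, ordered by role; filled points had an adjusted p under 0.05 in edgeR, and small gray points are the values under the alternative settings. The interval of Pmaip1 (0.93 to 1.87) lies highest, that of Bcl2 (−1.41 to −0.31) lies below 0, and those of Bcl2l1 and Bcl2l11 cross 0.

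To compare levels between members, CPM were divided by exon length in kilobases. On this scale Mcl1 was first in both groups, at 123 ± 18 CPM per kb in JMML and 74.6 ± 3.26 in WT (SD, n = 3). Bak1 followed at 47.8 ± 6.55 and 25.7 ± 2.13, then Bax at 27.1 ± 0.230 and 17.6 ± 2.93, and Bid at 21.2 ± 0.780 and 14.1 ± 0.416. The ranges of these 4 did not overlap between neighbours in JMML, while those of Bax and Bid overlapped in WT. The other 6 members lay between 2.24 and 7.22 CPM per kb in JMML and between 1.80 and 5.23 in WT. In JMML their order was Pmaip1 (7.22 ± 1.39), Bcl2a1b (4.94 ± 1.71), Bcl2l1 (4.54 ± 0.669), Bbc3 (2.86 ± 0.537), Bcl2l11 (2.35 ± 0.521) and Bcl2 (2.24 ± 0.508), with overlapping ranges between each pair of neighbours except Bcl2l1 and Bbc3. In WT the order was Bcl2l1 (5.23 ± 0.724), Bcl2 (4.07 ± 0.989), Pmaip1 (2.73 ± 0.449), Bcl2l11 (2.65 ± 0.383), Bcl2a1b (2.62 ± 0.231) and Bbc3, with overlap between each pair of neighbours except Bcl2a1b and Bbc3. Bcl2 thus had rank 10 in JMML and rank 6 in WT, and Pmaip1 had rank 5 in JMML and rank 7 in WT.

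Survival members were weighed against BH3-only members in each library by the mean of log2(CPM per kb + 0.1) over the 4 genes of each arm, which gives each gene equal weight. The survival mean minus the BH3-only mean was 0.53, 0.75 and 0.62 in JMML and 1.07, 1.17 and 1.07 in WT. All JMML libraries were below all WT libraries, and the group means differed by −0.47 on the log2 scale. The survival mean itself overlapped between groups, at 3.15 ± 0.17 in JMML and 3.03 ± 0.06 in WT. The BH3-only mean did not, at 2.52 ± 0.10 and 1.92 ± 0.03. These scores over chosen members are descriptions and carry no test.

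Summed levels gave another picture, because Mcl1 and Bid carry most of each sum over the 4 members. These sums leave out all other family genes. Among other BH3-only genes only Bnip3l was above Bid, at 45.7 ± 8.91 CPM per kb in JMML and 32.5 ± 2.00 in WT. Its difference did not pass the test (adjusted p = 0.0510 in edgeR). The survival sum was 135 ± 18.6 CPM per kb in JMML and 86.6 ± 3.64 in WT, and the BH3-only sum was 33.7 ± 0.803 and 21.2 ± 0.355. Their ratio was 4.55, 4.06 and 3.39 in JMML and 3.88, 4.34 and 4.02 in WT. These ratios overlapped, with a JMML library at either end. The effector sum was 75.0 ± 6.69 in JMML and 43.4 ± 3.83 in WT, so all 3 sums were higher in JMML without overlap. Whether the survival arm was lower relative to the BH3-only arm in JMML therefore turned on the weighting: it was with equal weight per gene, and the summed ratio did not separate the groups.

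**Figure D3:**
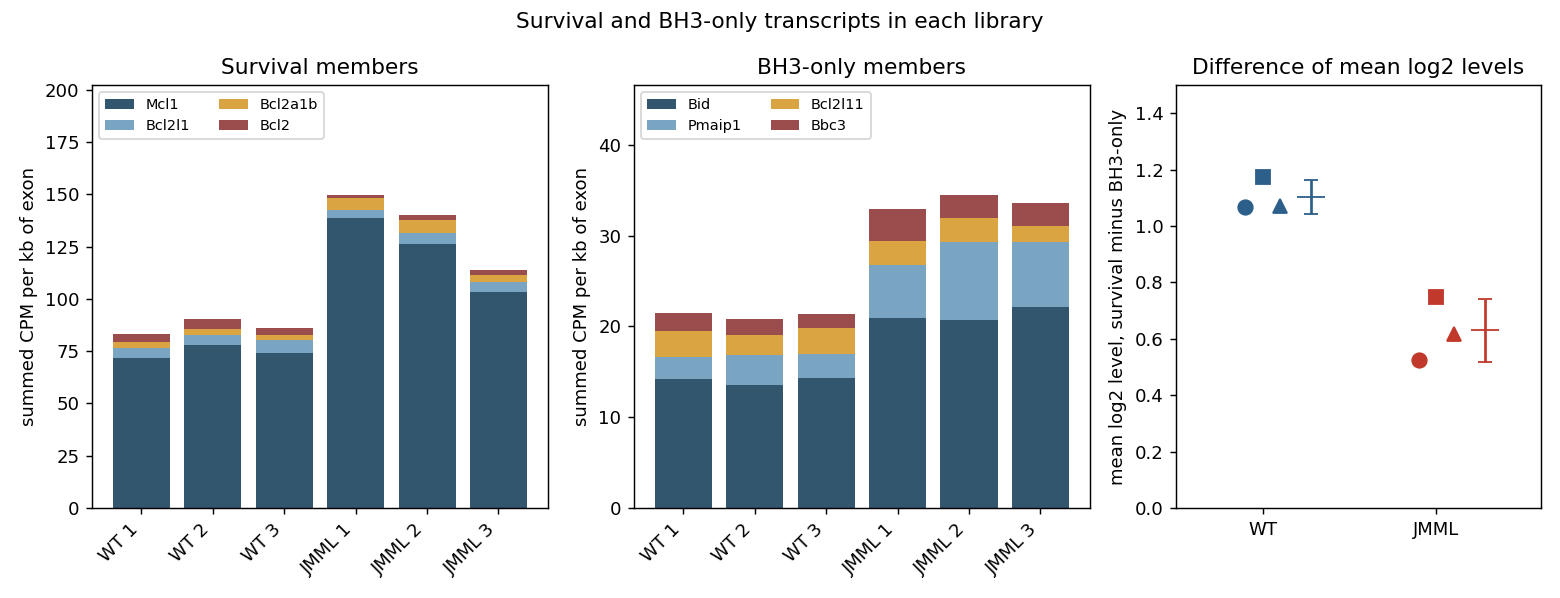
Left and middle, stacked bars of CPM per kb of exon of the 4 survival and the 4 BH3-only members in each library; right, the survival minus BH3-only mean log2 level of each library (symbols by replicate) with mean and SD. Mcl1 and Bid fill most of each bar, all JMML bars are taller than all WT bars, and the difference is 0.53 to 0.75 in JMML against 1.07 to 1.17 in WT.

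Within the survival arm Mcl1 held a larger share in JMML than in WT and Bcl2 a smaller one. Mcl1 took 91.2 ± 1.27% of the survival sum in JMML and 86.2 ± 0.249% in WT, and Bcl2 took 1.72 ± 0.602% and 4.68 ± 0.996% (SD, n = 3), both without overlap. The ratio of Mcl1 to Bcl2 per kb was 83.1, 52.2 and 39.2 in JMML and 18.1, 15.3 and 23.7 in WT. Every JMML ratio was above every WT ratio, and the JMML ratios differed among themselves by more than the whole WT range. Without Mcl1 the survival sum was 11.7 ± 1.75 CPM per kb in JMML and 11.9 ± 0.422 in WT, and the groups overlapped. This sum counts Bcl2a1b alone among the near-identical Bcl2a1 copies, as do the shares and ranks above. Left out were Bcl2a1a, at 3.30 ± 1.10 CPM per kb in JMML and 1.51 ± 0.299 in WT, and Bcl2a1d, at 3.21 ± 0.844 and 1.59 ± 0.151. The likeness of this sum between groups therefore holds for the chosen members only.

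Within the BH3-only arm the share of Pmaip1 grew. It was 21.4 ± 3.61% of the BH3-only sum in JMML and 12.9 ± 2.35% in WT, while the share of Bcl2l11 was 6.99 ± 1.57% and 12.5 ± 1.61%, both without overlap. Bid held 63.1 ± 2.98% and 66.2 ± 0.977%, with overlap. For the pair Mcl1 and Noxa, whose proteins bind each other, the ratio of Mcl1 to Pmaip1 per kb was 23.7, 14.6 and 14.4 in JMML and 30.2, 24.2 and 28.7 in WT. JMML ratios were lower, and JMML replicate 1 came close to WT replicate 2. The ratio of Bcl2 to Bcl2l11, another pair of binding partners, was 1.02 ± 0.451 in JMML and 1.59 ± 0.636 in WT and overlapped.

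Other family genes moved in both directions. Of 16 such genes 13 were tested, and 6 rose, 3 fell and 4 did not pass, with a median log2 fold change of 0.49. These calls were 69.2% of the tested genes, beside 26.2% of all genes. The survival copies Bcl2a1a (1.13 ± 0.33, adjusted p = 0.0421 in edgeR) and Bcl2a1d (1.01 ± 0.28, 0.0376) rose. Both calls ended with the letter as a covariate (0.63 and 0.56) and with any single library left out except JMML replicate 3. Since reads can be placed on the wrong copy, these 2 rises may not be separate. Bcl2l2, which encodes Bcl-w, did not pass (−0.83 ± 0.40, 0.165). Bcl2l2 stood at 14.2 CPM in JMML replicate 1 and at 4.61 and 5.65 in the other 2 JMML libraries, against 14.1 to 15.0 in WT, and it was called lower without JMML replicate 1 (−1.48). Among other BH3-only genes Bnip3, which hypoxia induces and which also marks mitochondria for removal, rose (1.26 ± 0.22, adjusted p = 0.00878), as did Bad (0.62 ± 0.17, 0.0359), whose protein growth factor signals hold in check. Bmf, whose protein is tethered to the cytoskeleton, passed the test (1.39 ± 0.38, 0.0350) although the groups overlapped. It was at 55.68, 47.09 and 19.16 CPM in JMML and 13.03, 13.59 and 19.82 in WT, and its fold change was 0.31 with the letter as a covariate. Bik was lower (−2.09 ± 0.57, 0.0338) at under 1 CPM in every library. Of the multidomain relatives, Bcl2l14 rose (1.98 ± 0.33, 0.00716), and Bok (−2.46 ± 0.70, 0.0397) and Bcl2l13 fell. Bok was low, at 0.378, 0.561 and 0.0880 CPM in JMML and 1.12, 1.30 and 3.27 in WT, with WT replicate 3 standing above the rest. Its call ended with any single library left out and with the replicate block, and its value was −1.78 (adjusted p = 0.114) without WT replicate 3 and −4.41 with the letter as a covariate.

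Of 54 genes that act around the family 52 were tested, and 11 rose, 7 fell and 34 did not pass, with a median of 0.02. The share called was 34.6%, beside 26.2% of all genes. By list it ran from 20% (inhibitors of apoptosis) to 57.1% (transcription factors that drive BH3-only genes), with 50% for Mcl1 protein turnover. Each list is short and none was tested as a set, so the counts only describe their genes. Downstream of the pore, cytochrome c (Cycs, 0.61 ± 0.14, adjusted p = 0.0193 in edgeR), Apaf1 (0.55 ± 0.11, 0.0115), the scaffold it binds, and the initiator caspase Casp9 (0.59 ± 0.13, 0.0170) rose, within lists of 8 pore or released proteins and 7 apoptosome genes in which 2 each rose and 0 fell. Of 5 inhibitors of apoptosis only Birc3, an NF-kB target, rose (0.83 ± 0.18, 0.0168). Upstream of Bid, 3 of 9 death receptor genes rose and 0 fell, a share of 33.3% called beside 26.2% of all genes. They were the TNF receptor gene Tnfrsf1a (0.58 ± 0.11, 0.0108) and the genes of its adaptors Tradd (0.78 ± 0.15, 0.0105) and Ripk1 (0.47 ± 0.10, 0.0150). The other 6 did not pass, among them Fas (0.49 ± 0.32, adjusted p = 0.280 in edgeR) and Fadd (0.04 ± 0.14, 0.840). Casp8, the gene of caspase-8, did not pass either (0.23 ± 0.13, 0.234). Upstream of Pmaip1 and Bbc3, which p53 induces, 2 of 12 genes of the p53 axis rose, the cell cycle inhibitor Cdkn1a (1.30 ± 0.20, 0.00608) and Perp (1.66 ± 0.30, 0.00944), and 2 fell, Zmat3 (−1.03 ± 0.29, 0.0364) and Mdm4 (−0.45 ± 0.13, 0.0464). The share called in this list was 33.3%, beside 26.2% of all genes. The p53 gene Trp53 did not pass (−0.46 ± 0.17, adjusted p = 0.0817 in edgeR), although every JMML library was below every WT library. Mdm2 did not pass either (0.04 ± 0.12, 0.841). Any part of p53 in the levels of Pmaip1 and Bbc3 was not tested. Of the genes for Mcl1 protein turnover, 2 of 4 tested fell, the ubiquitin ligase genes Btrc (−1.09 ± 0.15, 0.00443) and Huwe1 (−0.58 ± 0.15, 0.0264); the value of Huwe1 was −0.12 after removal of the trend with exon length. That removal also ended the call of Mdm4 (−0.12). Usp9x of the same turnover list did not pass (−0.30 ± 0.12, adjusted p = 0.101 in edgeR), although every JMML library was below every WT library.

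**Figure D4:**
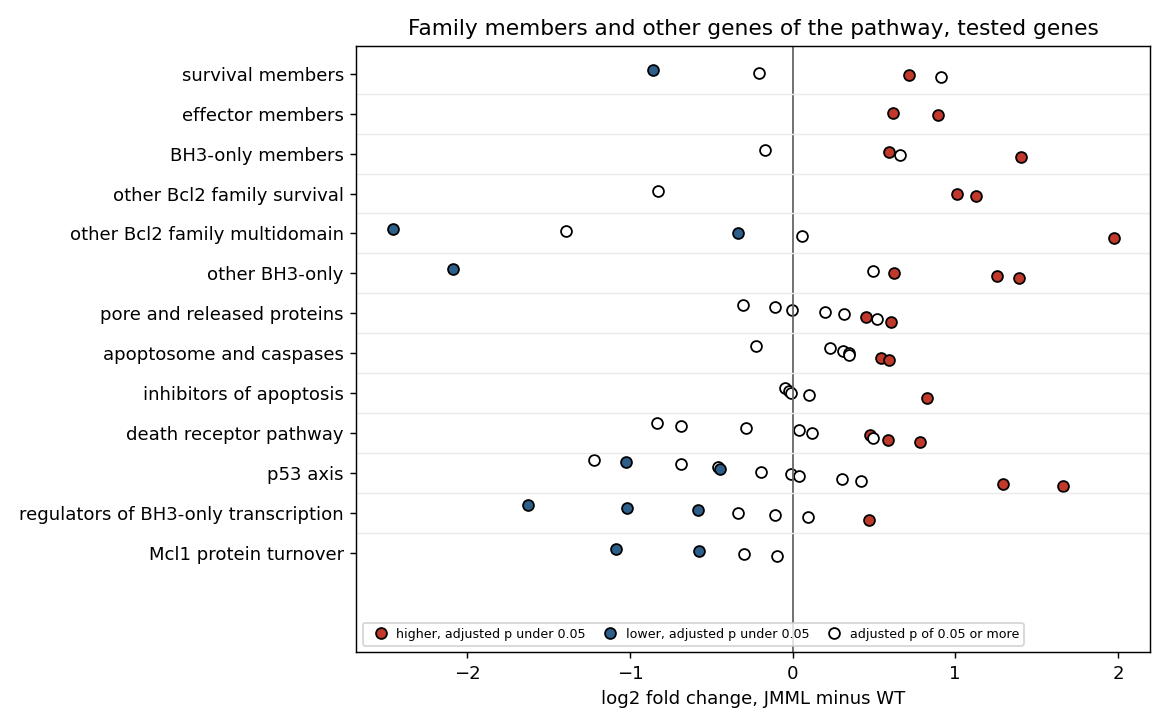
Fitted log2 fold change, JMML minus WT, of the members and of the other tested genes of each list; each point is a gene, colored by direction where the adjusted p in edgeR was under 0.05. Effector members are both higher, and in the list of Mcl1 turnover 2 genes are lower and 0 higher.

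Of 7 tested transcription factors known to drive BH3-only genes, 1 rose and 3 fell. The share called was 57.1%, beside 26.2% of all genes, of which 13.8% were lower. Foxo1 (−1.63 ± 0.21, adjusted p = 0.00376 in edgeR), Foxo3 (−0.58 ± 0.10, 0.00716) and Myc (−1.02 ± 0.17, 0.00690) fell, and Atf4, a factor of the integrated stress response, rose (0.47 ± 0.13, 0.0366). The calls of Foxo3 and Myc ended with the letter as a covariate (−0.61 and −0.96). Among the called genes named here that are not members, Bnip3, Cdkn1a, Perp, Foxo1 and Btrc kept their calls in all 16 alternatives, and each of the others lost its call in at least 1, often without a single library. Start site windows of 300 bases from RefSeq (GRCm38.p6), of which 14 belonged to 9 of the members, were searched on both strands for the FoxO letters and for the E-box that Myc can bind. The FoxO letters were TGTTTAC. Read on the other strand they are GTAAACA. The E-box was CACGTG, the same on either strand. The FoxO letters occurred in 3.65% of 32851 windows of all genes and the E-box in 7.15%. Stretches of 30 bases around the matches upstream of the members' start sites are given with the motif in capitals, to show which members hold these letters and where.
Bcl2l11, FoxO letters, position −227: aagacactaggGTAAACAcgccggggtggg (chr2:128125800-128125829, plus strand)
Bbc3, FoxO letters, position −167: tctggcgggttTGTTTACaaacaatggggt (chr7:16310083-16310112, plus strand)
Bbc3, E-box, position −64: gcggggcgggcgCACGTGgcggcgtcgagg (chr7:16310355-16310384, plus strand)
Bax, E-box, position −9: agcgatgatgatCACGTGactagtcctgcg (chr7:45466890-45466919, minus strand)
Positions count from the start site of each window. A match describes letters, not binding. Of the members with a match, Bcl2l11 and Bbc3 did not pass the test (−0.17 and 0.66) and Bax rose (0.62). Any part of these factors in the members' levels was not tested.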

How the data were processed

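Total RNA of 3 JMML and 3 WT mouse libraries was sequenced with a stranded kit that removes ribosomal RNA (per the labels' protocols). The authors deposited unnormalized whole-number counts for each Ensembl gene. The submitters' processing notes name the build GRCm38 and, without role or order, DESeq2 1.22.2, R 3.5.0, StringTie 1.3.3b, Picard 2.0.1, STAR 2.5.3a and bcl2fastq 2.18.0.12. Not given in the sources used here: counter, annotation release, strand setting, and handling of mates and of reads with several matches. In the range of 1 to 20, 51.6% to 58.8% of counts were even. Whether both mates were counted, in which case counts would overstate independent fragments, was not tested.

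Symbols, positions and exon lengths came from GENCODE vM21 (45229 of 46078 identifiers matched). The test was edgeR 4.0.16 under R 4.3.3 (filterByExpr by group, TMM, quasi-likelihood F test, Benjamini-Hochberg over 18097 genes, threshold 0.05; common biological coefficient of variation 29.4%). SE is the absolute log2 fold change over the square root of F, and intervals are 95% and unadjusted. CPM are TMM-scaled. The pseudocount was 0.1. The fit was tested on simulated counts.

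Members and lists were chosen with earlier results of these data known. Named genes are all 10 members and up to 4 tested genes of each other list with the smallest p. Bnip3l, Trp53, Mdm2, Fas, Fadd and Casp8 are also given, from the main fit. Alternatives were DESeq2 1.42.0 (size factors, Wald test), library totals alone, limma-voom (3.58.1), no filter, 50 counts in 3 libraries, the replicate block, the letter F or M (covariate, or M alone), each replicate left out, summed Bcl2a1 copies and, chosen after seeing the data, removal of the exon length trend by loess (span 0.5). Figures used matplotlib 3.10.9.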

Additional observations from a re-analysis of the deposited data

How the results depend on the processing

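Among the members, Bak1, Bid and Pmaip1 kept their calls in all 16 alternatives and Mcl1, Bax and Bcl2 lost theirs in 2, 7 and 8. With the identifier letter as a covariate 3 members were called in place of 6 (all higher), and 3 in the libraries with M alone; leaving out 1 replicate gave 4 to 6, the DESeq2 Wald test 8. Genes called numbered 4737, against 2219 with the letter, 2506 with M alone, 2809 with the replicate block and 2203 to 4003 with 1 replicate left out. With library totals alone the median of all genes moved from −0.02 to −0.21 and 27.0% of calls were higher in place of 47.4%. The survival minus BH3-only difference of −0.47 was −0.36 with a pseudocount of 1. The sign of Bcl2l11 (−0.17) turned without JMML replicate 3 (range −0.29 to 0.020 with 1 replicate left out). Uncalled pathway genes near 0 also changed sign: Xiap (−0.089 with totals alone), Birc6 (0.042 without a filter, 0.014 with M alone, 0.44 without the length trend, −0.091 to 0.037 with 1 replicate left out), Birc5 (0.059 without a filter, 0.16 with the letter, 0.20 with M alone, −0.10 to 0.075) and Fbxw7 (0.091, 0.13 and 0.0078 with the letter, with M alone and without the length trend, −0.17 to 0.0042). Usp9x, uncalled but not near 0 (−0.30 in the main fit), changed sign without the length trend (0.030). The cause was not tested, except that leaving libraries out leaves fewer to test.

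The labels do not say whether replicate numbers pair libraries. Deviations of same-numbered libraries from their group means correlated at −0.20, 0.05 and −0.14, and not every library correlated best with its own number. With 3 libraries a group these values cannot decide whether libraries were paired. The replicate block called 4 members, all higher, in place of 6. No WT library carries F, so adjusting for the letter makes a comparison that rests on JMML replicate 3, which is 1 library assumed to vary like the WT group. With 3 libraries a group, changes in members with few counts, such as Bcl2a1b (at most 537) and Bbc3 (at most 605), were measured with less precision than that of Mcl1 (at least 13929).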
